A study of Homo sapiens and Mus musculus with 30 samples.

Results

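Total RNA of NIH3T3 cells, a mouse embryonic fibroblast line, was compared between cells holding 4 increasing levels of LIN28B (X1, X2, X3 and X4) and cells at X0. The members were the 10348 genes, of 41128 in the mouse table, whose total RNA averaged at least 1 RPKM over the 5 libraries. RPKM scales a gene's reads by its length in kilobases and by library size (per 1e+06 reads). Gm5507 lay just inside this limit with a mean of 1.00007 RPKM, and Gm10642 lay just outside it with 0.999823 RPKM. These 5 libraries, 1 per level, are part of a series of 30, and 5 libraries of polysome RNA from the same line and levels served for comparison.

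Per the labels, all cells grew in DMEM with serum and LIN28B transgenes were induced with doxycycline at 10 ng/ml. The labels do not say whether X0 cells carried a transgene or received doxycycline. The series' design text calls X0 a LIN28B knockout, but the NIH3T3 titles name none. Nor do they give the promoter, the species of the transgene, or whether the line was 1 clone. The design text speaks of 2 replicates, while the table holds 1 column per level and fraction. X1 to X4 were therefore treated as 1 group of 4 libraries, and X0 as a lone library assumed to vary as they did. Nothing in the labels names separate cultures, so p-values cover the spread among these libraries alone, and that spread may be technical.

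LIN28B is an RNA-binding protein that attaches to precursors of the let-7 microRNAs and blocks their maturation, and it also binds many messenger RNAs. Mature let-7 pairs with target messages through its seed and lowers their stability and translation. LIN28B is best known from embryonic cells and tumours, whereas differentiated cells such as fibroblasts are usually rich in let-7. The mature forms of 4 let-7 family members are shown with their common seed, bases 2 to 8 from the 5′ end, in capitals. They are human RefSeq sequences (GRCh38.p14), and mouse sequences were not used here. The let-7 target list used here is a list of gene symbols, whose transcripts were not searched for this seed.
hsa-let-7a-5p (chr9:94175962-94175983, + strand): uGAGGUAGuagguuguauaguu
hsa-let-7b-5p (chr22:46113691-46113712, + strand): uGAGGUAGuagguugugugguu
hsa-let-7g-5p (chr3:52268336-52268357, - strand): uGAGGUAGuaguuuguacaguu
hsa-miR-98-5p (chrX:53556299-53556320, - strand): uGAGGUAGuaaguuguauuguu
All 4 share the seed GAGGUAG and differ only after it.

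Reads recovered from the RPKM steps numbered 16.1 to 25.0 M per total RNA library (M, 1e+06), and X0 was the deepest. Fibroblast markers summed to 8891 to 9746 RPKM, and 19 of 20 averaged at least 1 RPKM, with Fap at 0 in every library. No epithelial, endothelial or neural marker of 14, 10 and 12 listed reached 1 RPKM, and Epcam, Krt5 and Ptprc were at 0. Only Cd68 and Cd14 of 11 leukocyte markers and Acta1 of 12 skeletal muscle markers did. The leukocyte sum was 12.5 RPKM at X0 and 18.0 to 23.4 RPKM at X1 to X4, nearly all of it from Cd68 and Cd14, and its part in the results was not tested. In bulk RNA, fewer cells of a type and less RNA per cell cannot be told apart.

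The mouse Lin28b gene gave 1, 1, 1, 9 and 42 reads at X0, X1, X2, X3 and X4, all under the RPKM limit. X4 and X3 thus held the most reads, in the labelled order, while X0, X1 and X2 could not be ordered at this depth. In polysome RNA its values were 0.00889, 0.0336, 0.0385, 0.134 and 0.488 RPKM. Reads of the mouse gene check the labels only as far as the transgene carries mouse sequence. Lin28a had at most 5 reads in any total RNA library.

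The X0 library stood apart from the other 4. Across genes, the log2 difference between X0 and another level had an SD of 0.53 to 0.61, against 0.25 to 0.37 between any pair of X1 to X4. Counting error of the median gene accounted for an SD of only 0.078 to 0.095. In the polysome libraries the same pairs gave 0.53 to 0.55 with X0 and 0.28 to 0.44 without it. Because there was 1 library at X0, the level X0 and whatever else set that library apart cannot be told apart.

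**Figure D1:**
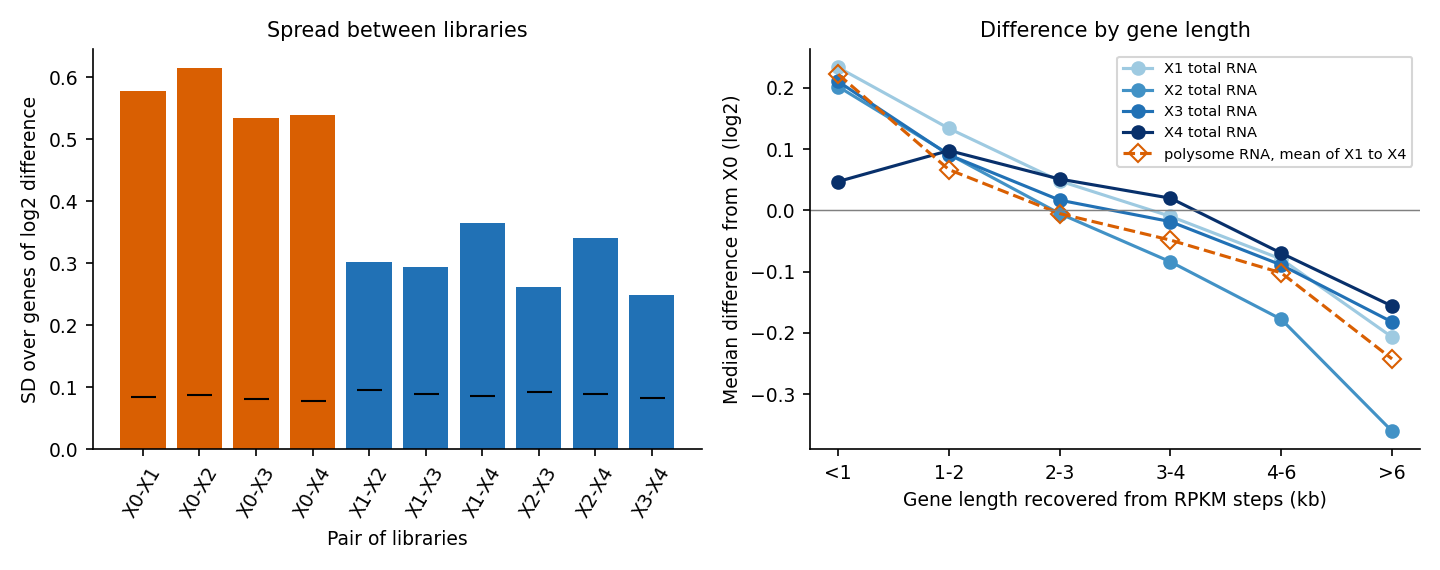
Left, the SD over 10348 genes of the log2 difference in total RNA for each pair of libraries (bars, orange with X0 and blue without), with the counting SD of the median gene as black dashes. Right, the median log2 difference from X0 by gene length in kilobases, for each level of total RNA (blue) and for the polysome mean (orange). Pairs with X0 sit at 0.53 to 0.61, the other pairs at 0.25 to 0.37, and medians are lower for genes over 6 kb than for those under 1 kb at every level, with X4 highest at 1 to 2 kb.

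With limma on log2(RPKM + 0.5), 1189 genes (11.5%) were higher and 1052 genes (10.2%) lower at X1 to X4 than at X0 at a Benjamini-Hochberg adjusted p under 0.05. Every log2 difference below is on this scale, which understates changes of low genes. Rises made up 53.1% of the calls, but 43.0% with edgeR on recovered reads (1387 higher, 1841 lower) and 63.4% once the minimum mean was raised to 5 RPKM (1067 higher, 615 lower). Leaving out X3 reduced the calls to 476 higher and 336 lower, and leaving out X2 to 786 and 769. Differences of at least 1 log2 unit at all 4 levels were found upward in 137 genes (1.32%) and downward in 115 (1.11%). Without X4, 182 genes were that far down at X1, X2 and X3, which asks for 3 levels instead of 4. At X1, 445 genes (4.3%) lay at least 1 log2 unit above X0 and 374 (3.61%) below it. The counts were 312 (3.02%) above and 753 (7.28%) below at X2, 304 (2.94%) and 291 (2.81%) at X3, and 338 (3.27%) and 230 (2.22%) at X4. X2 thus had the most genes below X0. These differences share the X0 library. Of the genes tested, 198 averaged under 1 RPKM over X1 to X4 and passed the filter only through X0, 53 of them called lower, and 303 lay under 1 RPKM at X0 and passed only through X1 to X4, 82 of them called higher. Such genes had to differ.

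Long genes tended to be lower relative to X0. The median log2 difference was 0.18 for genes under 1 kb and −0.23 for genes over 6 kb, and −0.24 for the latter in polysome RNA. When this relation to length was subtracted (an adjustment chosen after seeing the data), 1351 genes were called higher and 1178 lower. The median over all genes tested was 0.02, −0.04, 0.01 and 0.01 at X1, X2, X3 and X4.

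Among genes at a mean of at least 5 RPKM, the 12 highest by their smallest difference were Retn, Agt, Fcor, Dlk1, Dpep1, Islr, Snora24, Ccr7, Mgst1, Wisp2, Aldh3a1 and S100g. Retn, the hormone resistin, measured 1.44 RPKM at X0 and 16.0, 15.2, 12.8 and 13.3 RPKM at X1, X2, X3 and X4, a rise of 2.93 ± 0.16 (SE) in log2 (limma, adjusted p = 0.0012). Agt, which encodes the angiotensin precursor, measured 5.18 RPKM at X0 and 36.9, 40.7, 35.8 and 33.3 RPKM at the other levels, a rise of 2.71 ± 0.13 (limma, adjusted p = 0.00114). Neither gene's X0 value came near the others, and the 4 LIN28B levels lay close together. Dlk1, a Notch-like membrane protein of preadipocytes and an imprinted gene, had 19.8 RPKM at X0 against 98.3, 97.6, 101 and 96.2 RPKM, 4.87-fold more (limma, adjusted p = 0.000661).

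Fcor, a small repressor of Foxo1, measured 35.5 RPKM at X0 and 228, 243, 191 and 175 RPKM at X1 to X4. Islr, a surface protein of mesenchymal stromal cells, went from 8.22 RPKM at X0 to 38.7, 47.6, 42.9 and 48.9 RPKM. Ccr7, a chemokine receptor usually met on lymphocytes and dendritic cells, measured 2.14 RPKM at X0 and 12.6, 15.1, 12.5 and 10.7 RPKM at the other levels. Of the leukocyte markers, Ptprc was at 0, while Cd68 and Cd14 both lay above X0 on average and 1 of these 2 was called higher. Mgst1, a microsomal glutathione transferase, and Aldh3a1, an aldehyde dehydrogenase, rose by 2.15 ± 0.13 and 2.07 ± 0.15 in log2 (limma, adjusted p = 0.0012 and 0.00193). S100g, a calcium-binding protein, varied most within this set, from 58.1 RPKM at X4 to 136 RPKM at X2, against 15.6 RPKM at X0. These genes were chosen by the size of this difference, and all 12 passed limma. Retn, Dpep1, Snora24 and Ccr7 lay under 5 RPKM at X0 and reached the mean of 5 RPKM only through X1 to X4. Their difference was thus partly set by the choice and their p-values are no added support. In polysome RNA, where 2.06% of genes tested were called higher, 11 of the 12 were, while Snora24, a short nucleolar RNA of 130 bp, was not (0.91 in log2, limma adjusted p = 0.544). Snora24 had only 5 reads in total RNA at X0 and 23, 18, 22 and 31 at X1 to X4. Its polysome values were 0 RPKM at X0, X1 and X3, 1.60 RPKM at X2 and 0.97 RPKM at X4.

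The 12 genes lowest by the same ranking were Tgfbi, Ppap2c, Cyba, Slc25a30, Cd34, Psrc1, Rgl3, Cdkn1a, Cbr2, Ddit3, Rbpj and Dpysl3. Tgfbi, a secreted matrix protein induced by TGF-beta, measured 52.0 RPKM at X0 and 3.29, 3.28, 2.19 and 0.153 RPKM at X1 to X4. Cyba, the membrane subunit of the NADPH oxidase, measured 33.2 RPKM at X0 and 3.26, 4.43, 2.97 and 0.30 RPKM. For these 2 genes X4 also lay far under X1, X2 and X3, and Cyba, which fell by 3.65 ± 0.89 in log2 (limma, adjusted p = 0.0324), missed the threshold without X3 (adjusted p = 0.0549) and with a pseudocount of 0.1 (adjusted p = 0.0563). Tgfbi fell by 4.55 ± 0.90 (limma, adjusted p = 0.0201).

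Ppap2c, a lipid phosphate phosphatase, went from 34.5 RPKM at X0 to 4.06, 2.65, 3.32 and 2.68 RPKM, a fall of 3.27 ± 0.23 in log2 (limma, adjusted p = 0.00164). Cd34, a sialomucin of progenitor cells and fibroblasts, measured 149 RPKM at X0 against 46.6, 40.7, 42.1 and 44.6 RPKM and fell by 1.77 ± 0.11 (limma, adjusted p = 0.0012). The X0 value of either gene was more than 3 times every other value. Rbpj, the transcription factor of Notch signalling, measured 13.4 RPKM at X0 and 5.15, 3.59, 4.84 and 4.597 RPKM at X1 to X4, and it has a near-identical copy, Rbpsuh-rs3, in the table, so its reads may be split. Tgfbi, Ppap2c, Cyba, Rgl3, Rbpj and Dpysl3 averaged under 5 RPKM over X1 to X4 and reached the mean of 5 RPKM only through X0. Their difference, too, was partly set by the choice. In polysome RNA, where 1.76% of genes tested were called lower, 8 of the 12 lowest genes were called lower. Ranking by p added Rhox5, a homeobox gene, at 63.9 RPKM at X0 and 235, 227, 242 and 258 RPKM, and Txnip, an inhibitor of thioredoxin, at 297 RPKM at X0 and 121, 117, 119 and 115 RPKM.

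**Figure D2:**
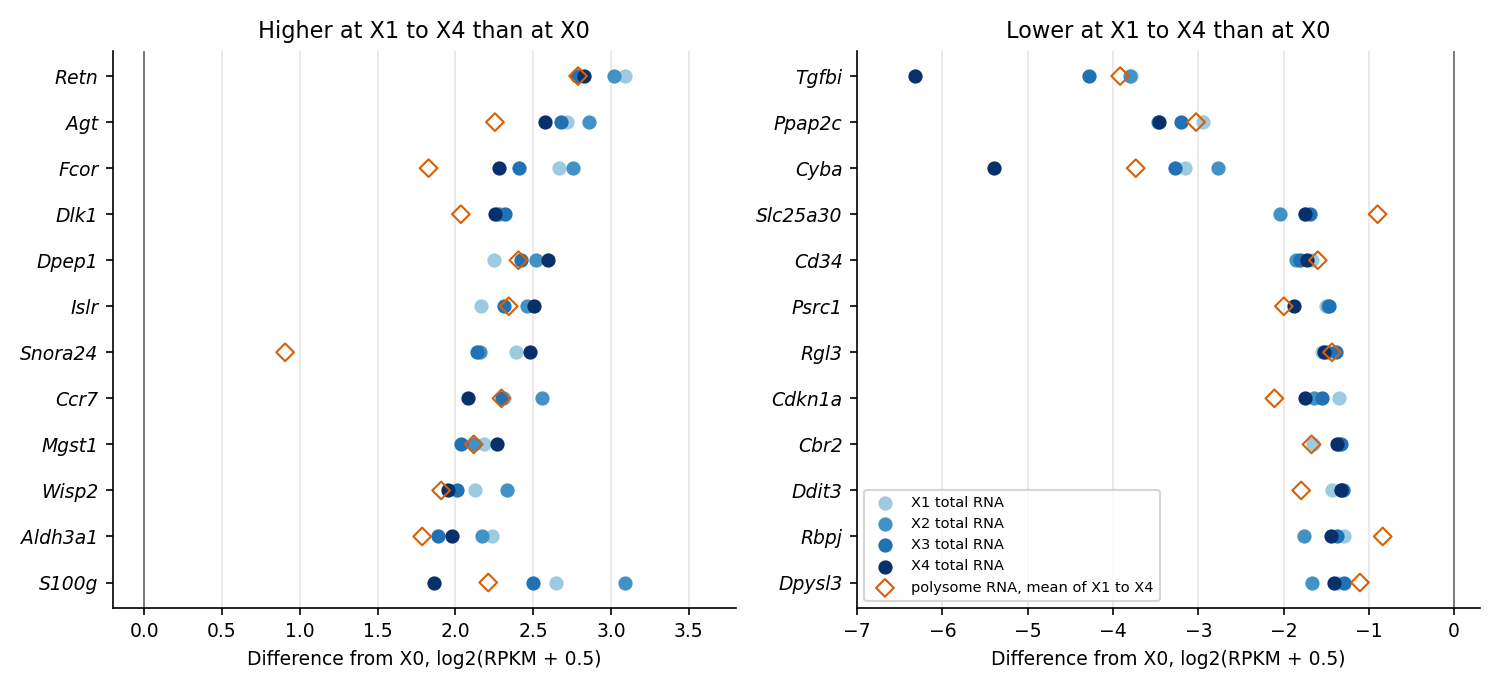
Log2 difference from X0 for the 12 genes highest and the 12 lowest by their smallest difference, with 1 blue point per LIN28B level in total RNA (1 library each) and an orange diamond for the mean difference of X1 to X4 in polysome RNA. All points on the left lie above 0 and all on the right below 0, and Snora24 has the diamond farthest from its points on the left.

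Genes of the extracellular matrix were higher as a group. Of 34 fibrillar matrix and crosslinking genes tested, 13 rose and 2 fell (38.2% higher, against 11.5% of all genes), and the median difference was 0.60. Mgp, the matrix Gla protein that inhibits calcification, measured 101 RPKM at X0 and 421, 458, 348 and 293 RPKM at X1 to X4. Loxl1, a lysyl oxidase that crosslinks elastin, measured 118 RPKM at X0 and 313, 346, 342 and 374 RPKM. Their rises were 1.89 ± 0.23 and 1.53 ± 0.12 in log2 (limma, adjusted p = 0.00637 and 0.00201), and both were named for the size of this difference. Col4a2, a basement membrane collagen chain, rose by 1.46 ± 0.14, and Mfap5, a microfibril protein, by 1.43 ± 0.18 (limma, adjusted p = 0.00298 and 0.00657).

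The collagen chains Col1a1, Col3a1, Col6a2 and Col4a1 rose too, as did Sparc and Lox. P4ha1, which hydroxylates collagen prolines, and the laminin chain Lamb1 fell. Fn1, fibronectin, measured 74.8 RPKM at X0 and 26.0, 27.9, 46.9 and 52.97 RPKM at X1 to X4 and did not pass (limma, adjusted p = 0.101). Polysome RNA gave a median of 0.54, with 7 of the 34 genes called higher, against 2.06% of all genes tested. The count of 13 became 8 without X3 and 21 with the adjustment for gene length. Col1a1 and Col3a1 also stand in the let-7 target list. Among 17 matrix proteases and inhibitors 3 rose (17.6%, against 11.5% of all genes), 2 without X2, 1 without X3 and 5 with edgeR. Among the 3 was Mmp2, a gelatinase, which went from 153 RPKM at X0 to 345, 385, 374 and 351 RPKM (1.24 ± 0.10 in log2, limma adjusted p = 0.00228).

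Chaperones and processing factors of the endoplasmic reticulum were likewise higher. In this list of 38 genes 14 rose and 1 fell (36.8% higher), with a median of 0.34 in total RNA. In polysome RNA the median was 0.62 and 10 were called higher, against 2.06% of all genes tested. Sdf2l1, a co-chaperone, measured 12.6 RPKM at X0 and 35.99, 33.1, 33.6 and 41.1 RPKM at the other levels. Calr, the chaperone calreticulin, measured 153 RPKM at X0 and 340, 304, 344 and 367 RPKM. Their rises were 1.47 ± 0.14 and 1.14 ± 0.12 in log2 (limma, adjusted p = 0.00324 and 0.00428). Manf and Creld2, which are secreted or resident proteins induced by stress in this compartment, rose by 1.31 ± 0.11 and 1.25 ± 0.11.

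Not every stress gene of the compartment followed. Hspa5, its main chaperone, measured 13.8 RPKM at X0 and 14.5, 13.5, 20.03 and 23.7 RPKM at X1 to X4, which did not pass (limma, adjusted p = 0.433). Ssr3, a subunit of the translocon-associated complex, fell by 0.93 in log2, while its partners Ssr2 and Ssr4 rose. The count of 14 became 8 without X3.

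Genes of cell division were higher and several p53 targets lower. Of 35 mitotic genes 14 rose and none fell with limma (40.0% higher), with a median of 0.54 in total RNA. In polysome RNA the median was 0.55 and 1 was called higher, against 2.06% of all genes tested. Spc24, a kinetochore subunit, measured 4.62 RPKM at X0 and 16.4, 12.5, 13.7 and 13.5 RPKM at X1 to X4, a rise of 1.49 ± 0.16 in log2 (limma, adjusted p = 0.00461). Cdc20, an activator of the anaphase-promoting complex, measured 21.1 RPKM at X0 and 42.1, 36.3, 41.6 and 39.2 RPKM, a rise of 0.90 ± 0.12 (limma, adjusted p = 0.00812). Fam64a and Troap rose by 0.91 each. The count of 14 was 9 without X3 and 21 with edgeR, and with limma at an unadjusted p under 0.05 it was 25, with 0 falls. At an adjusted p under 0.05, edgeR and DESeq2 also gave 0 falls.

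DNA replication and G1/S genes showed 7 rises and no fall with limma among 43 tested (16.3% higher, median 0.33), 16 and 0 at an unadjusted p under 0.05, and 12 and 0 with edgeR or DESeq2. The helicase subunits Mcm5 and Mcm3 rose by 1.32 ± 0.12 and 1.02 ± 0.15 in log2 (limma, adjusted p = 0.0028 and 0.00994), and without X3 the 7 became 4. Ccnb1, the mitotic cyclin B1, had 3.64 RPKM at X0 and 6.97, 4.81, 6.09 and 6.48 RPKM and did not pass (limma, adjusted p = 0.0577), though it did with edgeR (adjusted p = 0.017) and DESeq2 (adjusted p = 0.004).

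The p53 list had 6 falls and no rise with limma among 22 tested (27.3% lower, against 10.2% of all genes), 8 falls and 2 rises at an unadjusted p under 0.05, and 8 falls and 0 rises with edgeR or DESeq2. Of the list, 5 genes lay at least 1 log2 unit down at all 4 levels. Cdkn1a, the cyclin-dependent kinase inhibitor p21, measured 92.1 RPKM at X0 and 35.8, 29.1, 31.1 and 27.0 RPKM at X1 to X4. It fell by 1.57 ± 0.16 in log2 (limma, adjusted p = 0.00363), and by 2.11 in polysome RNA (limma, adjusted p = 0.0136). Ccng1, the cyclin G1 gene, measured 21.7 RPKM at X0 and 7.08, 5.97, 9.13 and 9.76 RPKM. Zmat3, an RNA-binding p53 target, measured 14.1 RPKM at X0 and 6.62, 4.91, 5.35 and 5.94 RPKM. Psrc1, which acts on spindle microtubules, fell by 1.58 ± 0.18 (limma, adjusted p = 0.0054). Trp53 itself measured 21.6 RPKM at X0 and 28.2, 26.2, 26.2 and 27.4 RPKM, which did not pass (limma, adjusted p = 0.0728).

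Glycolytic and hypoxia genes were lower, with 16 falls and no rise with limma among 31 tested (51.6% lower) and a median of −0.64. At an unadjusted p under 0.05 there were 20 falls and 0 rises, and edgeR and DESeq2 gave 19 and 20 falls and 0 rises. Pgk1, phosphoglycerate kinase, measured 639 RPKM at X0 and 218, 218, 262 and 269 RPKM at X1 to X4, a fall of 1.41 ± 0.15 in log2 (limma, adjusted p = 0.00428). Its reads may be shared with the near-identical copies Pgk1-rs7 and Gm5537. Aldoa, aldolase A, measured 654 RPKM at X0 and 270, 285, 346 and 351 RPKM, and Pfkl, the liver form of phosphofructokinase, 43.5 RPKM at X0 and 16.4, 17.3, 24.6 and 25.6 RPKM. In all 3 genes X3 and X4 lay between X0 and the lower pair X1 and X2.

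The hypoxia genes in the list showed like falls. Hif1a, the oxygen-regulated transcription factor subunit, measured 5.55 RPKM at X0 and 1.49, 1.35, 1.85 and 2.31 RPKM and fell by 1.44 ± 0.25 in log2 (limma, adjusted p = 0.0148). Egln3, a prolyl hydroxylase that marks it for degradation, measured 6.55 RPKM at X0 and 2.23, 1.96, 2.73 and 2.07 RPKM. Bnip3, a mitochondrial protein of mitophagy, measured 45.3 RPKM at X0 and 21.3, 15.5, 18.8 and 21.8 RPKM. Exceptions were Slc2a1, the glucose transporter, at 44.0 RPKM at X0 and 52.2, 47.6, 55.8 and 60.5 RPKM (limma, adjusted p = 0.178), and Gapdh at 1251 RPKM at X0 and 885, 999, 1132 and 1121 RPKM (limma, adjusted p = 0.21).

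In polysome RNA, 8 of the 31 glycolytic and hypoxia genes were called lower, against 1.76% of all genes tested, with a median of −0.56. All 16 that fell in total RNA were below polysome X0 on average. Hif1a was an uneven case there, at 11.0 RPKM at X0 and 5.09, 8.55, 13.5 and 7.56 RPKM.

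The list of translation factors and related genes had 16 falls and no rise with limma among 40 tested in total RNA (40.0% lower) and a median of −0.35. The 16 include Npm1, a nucleolar chaperone, Nap1l1, a histone chaperone, and Tpt1, which are not translation factors. There were 20 falls and 1 rise at an unadjusted p under 0.05, 19 falls and 0 rises with edgeR, and 19 and 1 with DESeq2. Eif3a, the largest subunit of initiation factor 3, measured 7.73 RPKM at X0 and 2.65, 1.43, 2.49 and 2.70 RPKM at X1 to X4. Eif4a2, a helicase of initiation, measured 119 RPKM at X0 and 51.4, 47.8, 48.9 and 43.5 RPKM. These 2 genes fell by 1.58 ± 0.29 and 1.31 ± 0.12 in log2 (limma, adjusted p = 0.0172 and 0.0028). Npm1 measured 126 RPKM at X0 and 48.4, 44.4, 54.5 and 53.3 RPKM, and Nap1l1 41.9 RPKM at X0 and 17.5, 15.9, 19.4 and 20.8 RPKM. Npm1 and several initiation factors have processed copies that could share their reads.

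In polysome RNA the same list had a median of 0.12 and no call in either direction with limma, with 4 genes higher and 5 lower at an unadjusted p under 0.05. Of its 16 genes that fell in total RNA, 8 had a polysome mean above X0. Npm1, for instance, measured 55.2 RPKM in polysome X0 and 55.3, 85.5, 114 and 75.0 RPKM at X1 to X4, and Eif3e measured 51.2 RPKM and 55.8, 85.0, 104 and 72.2 RPKM. Total RNA of Eif3e was 264 RPKM at X0 and 131, 125, 131 and 140 RPKM at the other levels. For these 2 genes every polysome level lay above polysome X0, by amounts that varied widely, and the difference between the fractions was not tested.

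Chaperones that fold cytosolic and mitochondrial proteins were examined in 2 lists. All 8 subunits of the TRiC chaperonin, which folds actin and tubulin, lay below X0 (median −0.65), as did 5202 of all 10348 genes tested. Of the 8, 4 passed (50% lower, against 10.2% of all genes): Cct2, Cct4, Cct6a and Cct8. Cct2 measured 256 RPKM at X0 and 136, 128, 139 and 137 RPKM at X1 to X4. Without X3 only 2 passed. Of 21 heat shock chaperones 5 fell and 1 rose (23.8% lower), and without X4 there were 9 falls. Hspd1, the mitochondrial chaperonin, and Hsph1, a cytosolic co-chaperone, fell by 1.27 ± 0.21 and 1.25 ± 0.22 in log2 (limma, adjusted p = 0.0129 and 0.0141).

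Cytosolic ribosomal protein genes, by contrast, had 1 rise (1.28%) and 2 falls (2.56%) among 78 tested and a median of 0.00 in total RNA, with 0.22 in polysome RNA. Their share of reads was 17.2% to 19.3% of each library. Nucleolar ribosome biogenesis genes had 2 rises and 5 falls among 40, a share of falls (12.5%) near that of all genes, with 1 and 2 without X3 and 2 and 3 without X1. Among respiratory chain subunits 20 of 84 rose and 1 fell (23.8% higher, median 0.22), and among mitochondrial ribosomal proteins 13 of 75 rose and 2 fell (17.3%, median 0.20). These are short genes, and the 20 became 8 without X3, 11 without X2 and 15 with the length adjustment, while the 13 became 5 without X3 and 8 without X2. None of the 15 genes encoded in the mitochondrial genome was called by limma or edgeR, with 1 fall at an unadjusted p under 0.05, 1 with DESeq2 and 3 with limma when X1 was left out.

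Targets of ATF4, the transcription factor of the amino acid response, were lower at a share of 19.5%, with 8 falls and 1 rise among 41 tested. Ddit3, the stress factor CHOP, measured 66.3 RPKM at X0 and 24.3, 26.0, 26.6 and 26.1 RPKM at X1 to X4 and fell by 1.35 ± 0.11 in log2 (limma, adjusted p = 0.00214). Atf3, a related factor, measured 3.79 RPKM at X0 and 0.928, 0.721, 1.21 and 0.504 RPKM and passed the filter only through X0. Stc2, the 1 rise, passed it only through X1 to X4. The tRNA synthetase genes Nars, Sars, Eprs and Tars fell as well. The 8 falls became 4 without X3 and 5 without X1. In polysome RNA the median of the list was −0.54, and 4 genes were called lower, against 1.76% of all genes tested.

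**Figure D3:**
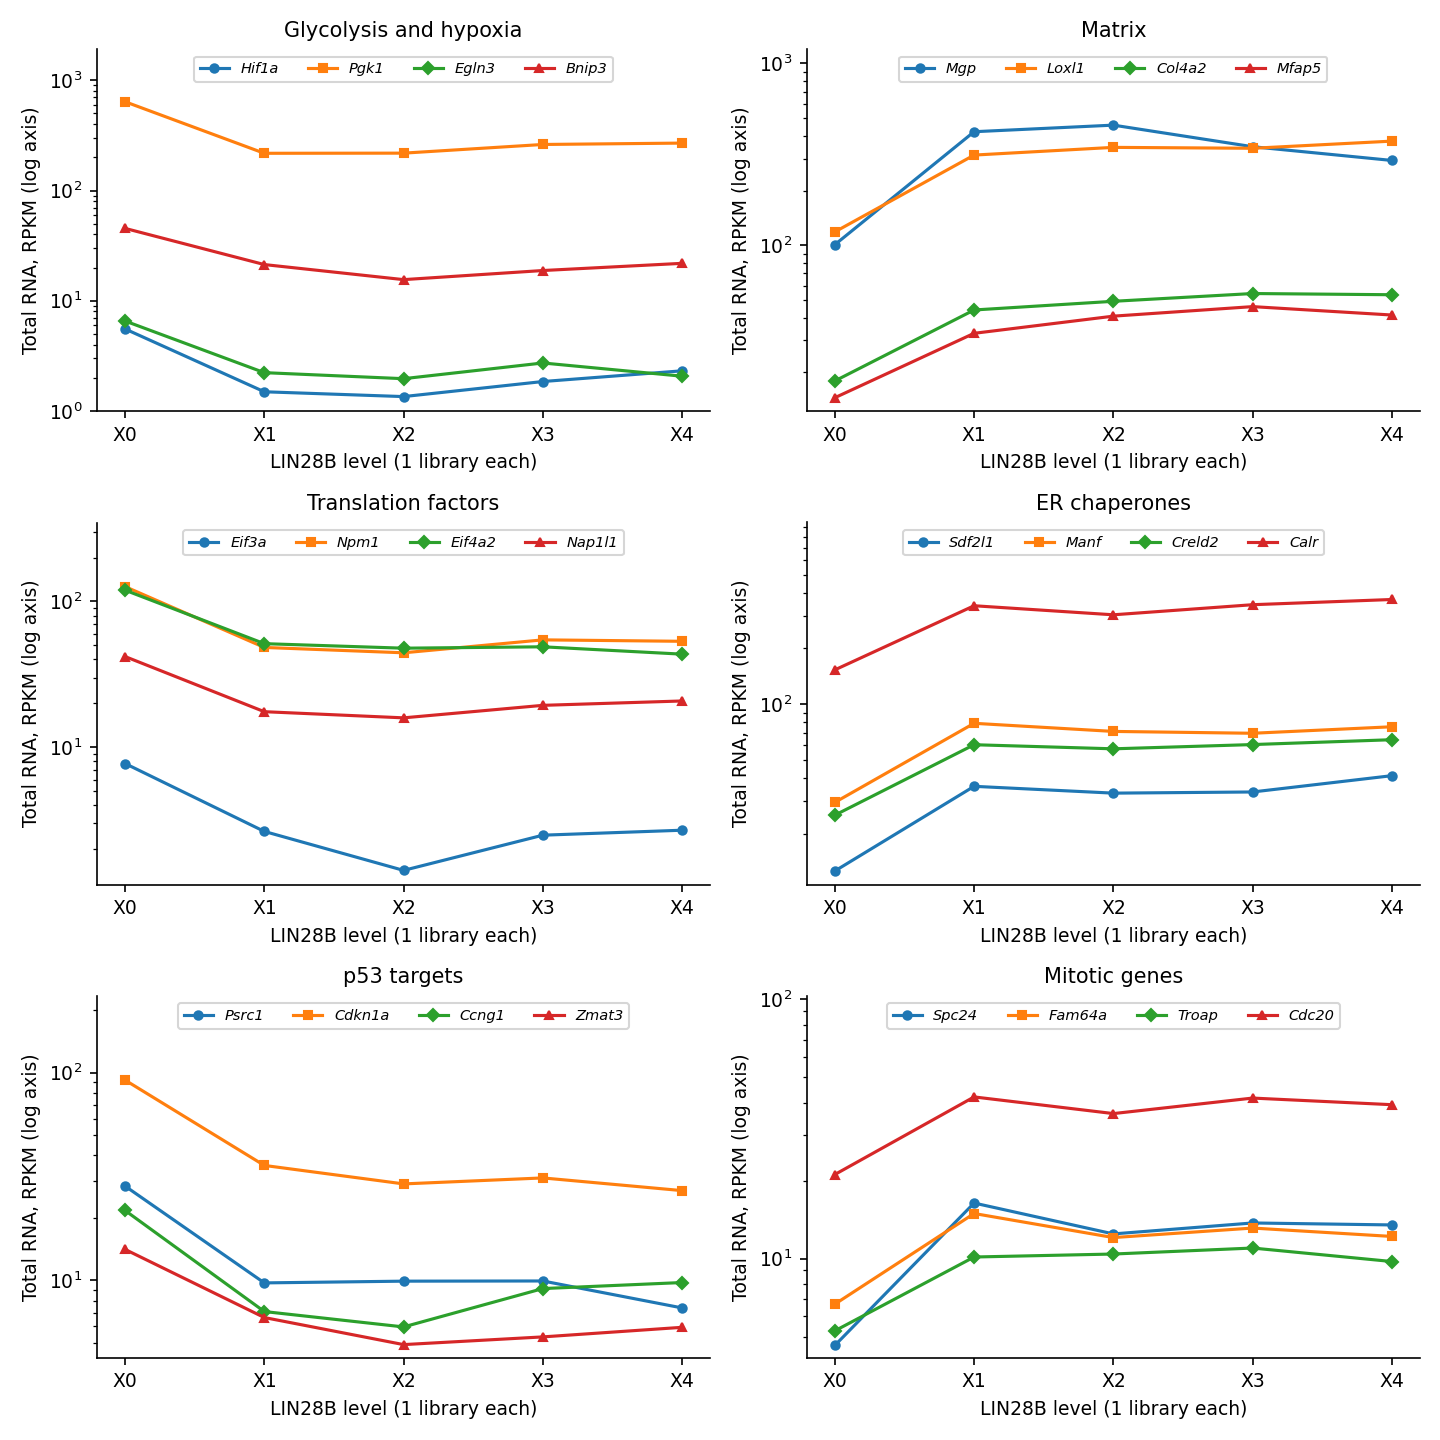
RPKM in total RNA (log axis) at each of 5 levels, 1 library each, for the 4 genes of largest mean difference in each of 6 lists. In every panel the step lies between X0 and X1, and values from X1 to X4 differ less from each other than from X0.

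The 82 conserved let-7 targets had 49 members tested, of which 4 rose and 7 fell. These shares, 8.16% and 14.3%, were near those of all genes, and the median was −0.22 in total RNA and −0.02 in polysome RNA. The list holds long genes (median 4489 bp, against 2928 bp over all genes tested). With the adjustment for gene length it had 7 rises, 7 falls and a median of −0.13. Hmga2, a chromatin protein and the best known let-7 target, measured 5.11 RPKM at X0 and 5.20, 3.77, 5.48 and 7.96 RPKM at X1 to X4, so that X0 lay within the range of the others (limma, adjusted p = 0.876). The RNA-binding proteins Igf2bp1, Igf2bp2 and Igf2bp3, also let-7 targets, stood at 2.08, 7.86 and 3.83 RPKM at X0 and did not pass either (limma, adjusted p = 0.458, 0.233 and 0.341). Igf2bp1, for example, measured 1.498, 1.41, 1.57 and 2.24 RPKM at X1 to X4.

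Other members of the let-7 target list moved in both directions. Igf1r, the IGF1 receptor, measured 2.13 RPKM at X0 and 4.74, 4.14, 4.72 and 5.57 RPKM and rose by 1.0 ± 0.18 in log2 (limma, adjusted p = 0.0152). Ccnd1, cyclin D1, measured 18.4 RPKM at X0 and 11.4, 8.40, 10.0 and 9.24 RPKM and fell by 0.89 ± 0.17 (limma, adjusted p = 0.0191). Nap1l1 and Tab2 fell by 1.17 and 1.05. Without X3 the list had 2 rises and 3 falls. Cdk4, a cyclin-dependent kinase, rose from 161 RPKM at X0 to 200, 203, 205 and 211 RPKM (limma, adjusted p = 0.0397), a call lost with edgeR (adjusted p = 0.0687), with quantile normalization (0.115), when centred on the trimmed mean (0.0504) and without X1, X2 or X3 (0.0542, 0.0745 and 0.121).

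Of 15 microRNA processing genes tested 5 fell (33.3%, against 10.2% of all genes) and 1 rose (6.67%). The falls became 1 without X3, 2 without X1, 3 without X2 and 10 with edgeR. Tarbp2, a Dicer partner, measured 4.64 RPKM at X0 and 8.01, 8.40, 8.48 and 10.2 RPKM. Ago2, the slicing Argonaute, measured 8.53 RPKM at X0 and 5.22, 3.85, 5.32 and 5.36 RPKM. Zcchc6, a terminal uridylyltransferase that acts on let-7 precursors, measured 1.86 RPKM at X0 and 0.902, 0.684, 0.847 and 0.942 RPKM, so that it passed the filter only through X0. Dicer1 averaged under 1 RPKM and was not tested.

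Genes of the adipocyte lineage and imprinted genes overlapped in Dlk1. In the adipocyte list 5 of 11 tested genes rose (45.5%, against 11.5% of all genes), with a median of 0.70. Agpat2, an enzyme of triglyceride synthesis, measured 5.59 RPKM at X0 and 14.7, 16.8, 14.7 and 15.7 RPKM at X1 to X4. Of 9 imprinted genes tested 5 rose (55.6%), 2 without X3, and edgeR also called 1 fall. The 9 divided into 5 above X0 and 4 below it on average. Ndn, encoding necdin, measured 0.678 RPKM at X0 and 4.04, 4.56, 4.63 and 3.52 RPKM, a rise of 1.99 ± 0.19 in log2 (limma, adjusted p = 0.00293), and like Snrpn it passed the filter only through X1 to X4. Slc38a4, an amino acid transporter, measured 6.44 RPKM at X0 and 15.8, 14.8, 22.7 and 34.2 RPKM.

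Of 28 integrin and adhesion genes 6 rose (21.4%) and 4 fell (14.3%), 3 and 2 without X3, and 8 and 8 without X4. Itga11, a collagen-binding integrin chain, measured 0.982 RPKM at X0 and 4.32, 5.19, 6.29 and 7.64 RPKM at X1 to X4, and Cav1, the caveolar coat protein, 214 RPKM at X0 and 68.4, 53.7, 80.7 and 89.2 RPKM. Itga11 passed the filter only through X1 to X4. Their log2 differences were 2.07 ± 0.28 and −1.57 ± 0.25 (limma, adjusted p = 0.00802 and 0.0126). Growth factor and receptor genes showed 9 rises (30.0%) and 3 falls (10.0%) among 30, and 4 and 2 without X3. Met, 1 of the falls, passed the filter only through X0, and Dkk2, 1 of the rises, only through X1 to X4. Ogn, a small proteoglycan, measured 9.64 RPKM at X0 and 1.86, 1.03, 1.60 and 2.70 RPKM, while Dkk3, a secreted Dickkopf protein, measured 4.76 RPKM at X0 and 13.9, 11.0, 13.8 and 11.4 RPKM.

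Among 24 cytokine and chemokine genes 3 rose and 3 fell, shares of 12.5% each that lie near those of all genes, and no fall passed limma without X3. Lif, 1 of the 3 falls, passed the filter only through X0. The chemokine Cxcl12 measured 14.2 RPKM at X0 and 39.1, 37.0, 36.04 and 34.4 RPKM, a rise of 1.34 ± 0.11 in log2 (limma, adjusted p = 0.00228). TGF-beta and YAP targets divided into 4 rises (14.3%, against 11.5% of all genes) and 5 falls (17.9%, against 10.2%) among 28. Tgfbi, Bhlhe40, Ankrd1, Ctgf and Ptpn14 were lower and Id1, Id3, Smad6 and Ccdc80 higher. Of 36 immediate early genes 3 rose (8.33%) and 5 fell (13.9%). Atf3, 1 of these falls, passed the filter only through X0. Spry2 and Dusp6, feedback inhibitors of the MAP kinase pathway, fell by 1.27 ± 0.17 and 1.09 ± 0.21 (limma, adjusted p = 0.00843 and 0.0177).

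**Figure D4:**
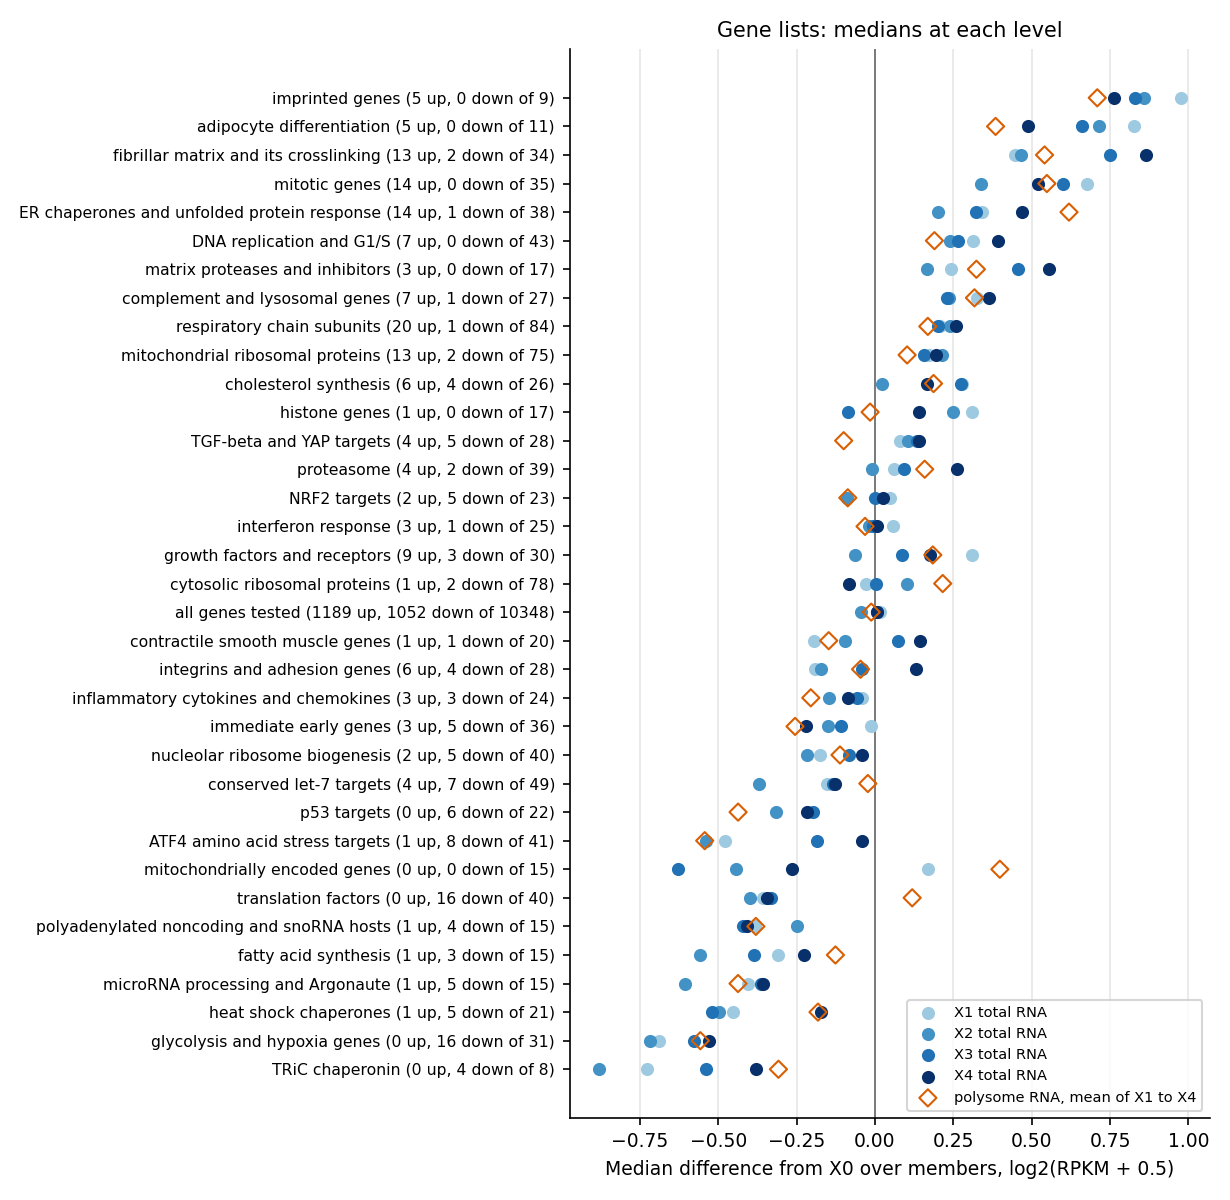
Median log2 difference from X0 over the tested members of each gene list with at least 8 of them, at each level of total RNA (blue) and for the polysome mean (orange), with the number called by limma in each direction. Imprinted, adipocyte, matrix and mitotic genes lie farthest right, glycolysis and TRiC genes farthest left, and translation factors are among the lists whose polysome median lies on the other side of 0.

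The polysome libraries, which have their own X0, gave fewer calls, 213 higher (2.06%) and 182 lower (1.76%). Of the 1189 genes higher in total RNA, 93.8% were above polysome X0 on average, against 48.6% of all genes tested, and 178 were called higher, which is 15.0% of that list and 83.6% of the polysome list. Of the 1052 lower genes 84.6% were below polysome X0, against 51.4% of all genes, and 131 were called lower, 12.5% of that list and 72.0% of the polysome list. A single gene was called in opposite directions. Of the 137 genes at least 1 log2 unit above X0 at all 4 levels, 130 were above polysome X0 on average, against 48.6% of all genes. Of the 115 that far below X0, 110 were below polysome X0, against 51.4%. Over the 10348 genes the mean differences in the fractions had a Pearson r of 0.62 and a Spearman rho of 0.58, as a description. Whether the fractions of a level came from 1 culture is not given.

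**Figure D5:**
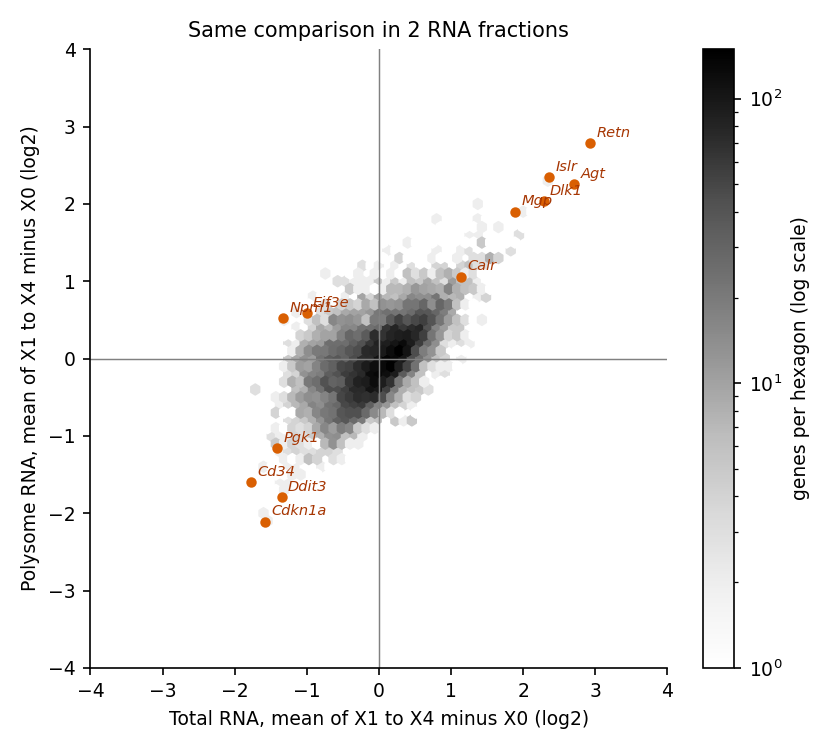
Mean log2 difference of X1 to X4 from X0 for 10348 genes in total RNA (x axis) and polysome RNA (y axis), with grey hexagons for gene density and 12 genes named in the text in orange. Genes beyond 4 log2 units, such as Tgfbi, lie outside the axes. Points run along the diagonal (Pearson r 0.62), and Npm1 and Eif3e lie at the upper left.

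A graded response over X0 to X4 was not called for any gene. A line fitted through the level ranks, 0 to 4, gave 0 rises and 0 falls with limma (smallest adjusted p = 0.172), with 759 rising and 377 falling genes at an unadjusted p under 0.05. Some genes nonetheless differed within X1 to X4 by more than most, named here after seeing their values. Acta2, smooth muscle actin, measured 112 RPKM at X0 and 107, 158, 315 and 576 RPKM at X1, X2, X3 and X4, and in polysome RNA 221 RPKM and 207, 265, 495 and 976 RPKM. Tagln, transgelin of the same contractile cells, measured 18.3 RPKM at X0 and 36.1, 51.1, 58.0 and 84.0 RPKM. Thbs1, a secreted matrix glycoprotein, measured 12.6 RPKM at X0 and 20.1, 21.8, 42.8 and 48.8 RPKM. Acta2 and Thbs1 did not pass against X0 (limma, adjusted p = 0.358 and 0.105), while Tagln did (0.0328). The contractile list as a whole had 1 rise and 1 fall among 20 tested (5.0% each). It had no rise without X2, 1 rise and 2 falls without X4, and no call without X3.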

How the data were processed

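RPKM values per gene were deposited by the authors for the 10 NIH3T3 libraries. Tools named in the submitters' processing notes are cutadapt and STAR, with mm10 as the mouse build. How reads were counted, with which annotation and whether by strand, was not given in the sources used here. Overlapping and antisense genes may therefore share reads. The authors also deposited raw counts for small RNA of HEK293A, not used here. Whole reads were recovered from the RPKM steps for all 21042 genes above 0, within 0.02 of a whole number.

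Differences were taken on log2(RPKM + 0.5) over genes at a mean of at least 1 RPKM. The test was limma 3.58.1 with a variance trend, X1 to X4 as 1 group against X0 (3 residual degrees of freedom), with Benjamini-Hochberg adjustment over all 10348 genes. edgeR 4.0.16 and DESeq2 1.42.0 on recovered reads were alternatives. Methods were tested on simulated data. Genes were named by rule: the 12 with the largest smallest difference and the 5 of smallest p each way at a mean of 5 RPKM or more, known LIN28B and let-7 genes, and up to 4 members of largest difference per list. Others named from the 40 lists were chosen after their values were seen. The members and lists were chosen with earlier results of these data known.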

Additional observations from a re-analysis of the deposited data

How the results depend on the processing

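With 1 library at X0, no alternative replaces that library, and the depth of 16.1 to 25.0 M reads limits genes near 1 RPKM. Leaving out X1, X2, X3 or X4 in turn gave 476 to 1494 higher and 336 to 1323 lower genes, and 116 to 182 genes at least 1 log2 unit lower at each of the 3 levels then left, a looser demand than at 4. Without a filter on low values 788 genes were higher, and 207 lower at all 4 levels. At a mean of 5 RPKM or more 615 were lower, 53 at all 4 levels, and 398, 423, 285 and 294 genes lay at least 1 log2 unit from X0 at X1, X2, X3 and X4. A pseudocount of 0.1 gave 905 at X3. edgeR and DESeq2 called 1841 and 1699 genes lower, and a line over the level rank 0 in either direction. The cause of these shifts was not tested. Of 1809 values for single named genes under the alternatives, 1653 kept direction and side of the threshold, 77 passed newly, 79 no longer passed, and none reversed. No paired analysis was possible because each level has 1 library and all carry the same number.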

Other observations

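Lipid genes changed in both directions against X0. Of 26 cholesterol synthesis genes 6 rose (23.1%, against 11.5% of all genes) and 4 fell (15.4%, against 10.2%) in total RNA, 3 and 1 without X3. Hmgcs1, the synthase that supplies the rate-limiting step of the pathway, measured 11.4 RPKM at X0 and 5.52, 3.75, 4.89 and 5.53 RPKM at X1 to X4. Among 15 fatty acid synthesis genes 3 fell (20%, against 10.2% of all genes) and 1 rose (6.67%, against 11.5%), with a median of −0.43. The falls were 1 without X2 or X3, 2 without X1 and 5 without X4, with 2 rises without X1 or X4. These genes are long (median 5279 bp, against 2928 bp over all genes tested). With the adjustment for gene length they had 2 falls, 1 rise and a median of −0.20. Of 27 complement and lysosomal genes 7 rose (25.9%) and 1 fell (3.70%), with 2 rises without X3 and 3 without X2. Glb1, the lysosomal beta-galactosidase, measured 13.3 RPKM at X0 and 25.3, 22.7, 27.3 and 31.3 RPKM.

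Of 19 fibroblast markers tested 6 rose (31.6%, against 11.5% of all genes) and 2 fell (10.5%, against 10.2%), with a median of 0.27. The 6 include Col1a1, Col3a1, Sparc and Lox, already named among the matrix rises, so the 2 lists are not separate observations. The rises were 4 without X2 and 2 without X3 and the falls 1 without X3 and 4 without X1. Vim, the intermediate filament vimentin and 1 of the 2 falls, measured 2994 RPKM at X0 and 1430, 1468, 1498 and 1221 RPKM, and fell by 1.10 ± 0.13 in log2 (limma, adjusted p = 0.00637). The snoRNA host transcripts Gas5 and Snhg5 fell by 0.85 ± 0.12 and 1.07 ± 0.14 (limma, adjusted p = 0.00892 and 0.00686). Gas5 measured 115 RPKM at X0 and 59.6, 68.8, 65.9 and 59.9 RPKM. NRF2 targets had 5 falls (21.7%) and 2 rises (8.70%) among 23 tested, 1 and 1 without X3 and 4 and 1 without X2. Gstm1, a glutathione transferase, measured 281 RPKM at X0 and 145, 158, 156 and 176 RPKM. Interferon response genes (3 rises and 1 fall among 25) and proteasome genes (4 rises and 2 falls among 39) had no larger share of calls than all genes tested, and without X3 the interferon list had 1 call and the proteasome list had none. Without X2 the proteasome list had 3 rises and 1 fall, and without X4 7 and 4. Of 17 histone genes tested 1 rose with limma (5.88%), and 5 rose and 2 fell at an unadjusted p under 0.05. The 1 gene called by limma, Hist1h3c, passed the filter only through X1 to X4.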
